A study of Mus musculus with 9 samples.

Results

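The genes described here are 46 genes of nucleotide excision repair, interstrand crosslink repair, translesion synthesis and homologous recombination, with the kinases that signal DNA damage and 1 subunit that supplies nucleotides. They were chosen by name from a list of repair genes and not by a cut on their values, though earlier results of these data were known. They were found by Entrez gene number among 17963 genes in a table of kidney RNA. All 46 passed the filter on low counts and are among the 13954 genes tested.

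RNA was sequenced from kidney cortex of wild-type (WT) mice on day 4, in 3 groups of 3 libraries. The control group received saline into the peritoneum and pure water by mouth. The cisplatin group received cisplatin into the peritoneum and pure water by mouth. The YSJZD group received cisplatin into the peritoneum and Yishen Jiangzhuo decoction (YSJZD), a herbal medicine, by mouth, so that both of these groups carry the drug and differ in what was given by mouth. The labels give no strain, age, sex or dose. They also do not say that samples of a group are separate animals, so a p-value here speaks only to the spread between samples.

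Cisplatin binds purine bases of DNA and joins neighbouring bases of 1 strand or, more rarely, bases of opposite strands. Nucleotide excision repair cuts out the damaged stretch of a strand, while the Fanconi anaemia pathway unhooks links between strands and hands the break to recombination, and translesion polymerases copy across what remains. The proximal tubule takes up cisplatin from the blood and is its main site of injury in the kidney.

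Library totals ran from 15029286 to 16690482 expected counts. The summed level of 10 proximal tubule markers was 61360 to 78990 CPM (counts scaled to a common library size) in control, 3421 to 6016 in cisplatin and 15705 to 32285 in YSJZD libraries. Of these markers, 9 were lower in cisplatin than in control (background 26.0% of all genes tested), with a median log2 fold change of -3.68. Lower markers were not particular to this segment. All 4 distal convoluted tubule markers (median -3.57), 5 of 6 of the thick ascending limb (-1.96) and 3 of 6 of the collecting duct (-0.47) were also lower. Kap, the proximal tubule marker with the highest level, had means of 53191, 3913 and 13998 CPM in control, cisplatin and YSJZD. The 10 macrophage and monocyte markers summed to 110 to 162, 1133 to 2601 and 411 to 748 CPM in the same order, and 7 of them were higher in cisplatin (background 28.6%). Cd14 weighed most in these sums after the drug, with group means of 12.2, 1052 and 405 CPM. In YSJZD against control the median log2 fold change of the 10 was 0.11, and 3 were higher (background 9.93%). The 9 neutrophil markers summed to 1.66 to 2.04, 42.9 to 130 and 4.15 to 10 CPM, and all 8 that could be tested were higher with cisplatin. So were 5 of 6 fibroblast and pericyte markers (background 28.6% for both). No marker of any list was at 0 in all control libraries. The part of these shifts in the results below was not tested, and in whole cortex fewer cells of a type and less RNA per cell cannot be told apart.

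The promoters of 3 members are shown because they belong to the members with the greatest rise (Ercc1) and fall (Rad51c) in cisplatin against control and to Lig1, the ligase of replication forks. Each is 250 bases before to 50 after a gene start of RefSeq on GRCm38.p6, written 5′ to 3′ on the strand of the gene. Ercc1 lies on the plus strand (chr7:19344821-19345120), Rad51c on the minus strand (chr11:87404457-87404756, the first of its 2 entries) and Lig1 on the plus strand (chr7:13278576-13278875, the second of its 3 entries). Capitals mark a match to an E2F-type word, that is TTTCGCGC, TTTGGCGC, TTTCCCGC or TTTGCCGC on either strand.
Ercc1: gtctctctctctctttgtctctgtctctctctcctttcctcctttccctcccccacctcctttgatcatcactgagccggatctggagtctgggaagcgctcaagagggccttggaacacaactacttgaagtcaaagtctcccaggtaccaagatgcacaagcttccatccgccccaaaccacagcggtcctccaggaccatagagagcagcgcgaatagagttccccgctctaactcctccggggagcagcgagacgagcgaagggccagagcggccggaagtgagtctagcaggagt
Rad51c: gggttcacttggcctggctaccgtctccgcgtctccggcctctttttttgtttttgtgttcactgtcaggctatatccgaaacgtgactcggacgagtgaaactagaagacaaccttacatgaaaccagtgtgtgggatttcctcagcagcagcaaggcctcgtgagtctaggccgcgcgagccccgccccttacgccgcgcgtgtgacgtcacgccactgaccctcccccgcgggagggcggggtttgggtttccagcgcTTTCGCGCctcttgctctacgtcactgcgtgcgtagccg
Lig1: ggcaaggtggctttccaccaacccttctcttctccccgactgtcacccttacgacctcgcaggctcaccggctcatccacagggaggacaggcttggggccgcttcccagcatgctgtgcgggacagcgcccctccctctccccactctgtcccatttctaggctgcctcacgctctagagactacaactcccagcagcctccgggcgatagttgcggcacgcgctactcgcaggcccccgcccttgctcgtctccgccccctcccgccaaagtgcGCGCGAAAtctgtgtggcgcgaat
E2F-type words are letters that the E2F family, the transcription factors of S phase entry, can bind, and a match here is a description of the letters only. The Ercc1 window held none. Both entries of Rad51c held 1, while of the 3 Lig1 entries the shown 1 held a match and the other 2 held none. Of the 38 members with an entry, 6 held such a word in at least 1 entry (15.8%), namely Fancg, Chek2, Brca2, Lig1, Rad51c and Msh6. The share was 4.4% of the 11096 tested genes with an entry, 2.6% of all 27025 genes in the promoter table, and 60% of 15 genes of DNA replication and S phase. The word TTTGAA (the cell cycle homology region, CHR) was in 1 member (2.63%, Ercc5) against 14.7% of tested genes and 20.2% of all genes, and CCAAT was in 57.9% of members against 42.5% and 41.1%.

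Cisplatin libraries were first set against control libraries, for the effect of the drug alone. A gene was called when its Benjamini-Hochberg adjusted p over all tested genes was under 0.05 in edgeR's quasi-likelihood test. Of the 46 repair genes 15 were called (32.6%), against a background of 54.6% of all genes tested. The 7 that were higher were Ercc1, Ercc5, Polk, Mad2l2, Rev1, Fance and Ddb2, and the background for higher genes was 28.6%. The 8 that were lower were Rad51c, Fancl, Poli, Rrm2b, Lig3, Parp1, Atm and Rad23b, against a background of 26.0%. A change of at least 2-fold, as in the design text of the study, was reached by 7 called members (15.2%), against 33.0% of all genes, 4 of them higher and 3 lower. Read against these shares, the share of repair genes called lay under the background in this comparison, and that difference was not tested. The median log2 fold change of the members was 0.19, beside 0.04 over all genes, and 31 members were not called.

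When counts were scaled by library totals alone, the median of all genes moved to 0.27 and 66.1% of the called genes were higher, against 52.4% with the composition factors used here. Under that scaling 11 members were higher and 6 lower, with Ddb1, Xpa, Rev3l and Pms2 added to the higher side and Rad23b and Atm no longer called.

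The comparison of YSJZD with cisplatin asks what the decoction changed in mice given the drug. It called 10 members (21.7%), against 35.4% of all genes. The 5 that were higher with YSJZD were Slx4, Poli, Rad51c, Atm and Parp1 (background 17.4%), and the 5 that were lower were Ercc1, Mad2l2, Fanci, Fancd2 and Lig1 (background 18.0%). A change of at least 2-fold was reached by 6 of these (13.0%), against 19.1% of all genes. The median of the members was -0.08, beside -0.01 over all genes. Without YSJZD replicate 2 the counts were 3 higher and 2 lower, without YSJZD replicate 3 they were 3 higher, and without cisplatin replicate 1 or YSJZD replicate 1 they were 2 lower. All genes called numbered 4942 in the full fit, 3544 without YSJZD replicate 2 and 3496 without YSJZD replicate 3. They numbered 4040 without cisplatin replicate 1 and 4871 without YSJZD replicate 1.

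The comparison of YSJZD with control called 9 members (19.6%), against 19.3% of all genes. The 8 that were higher were Ercc5, Polk, Mad2l2, Slx4, Rev1, Ercc1, Ddb2 and Fance (background 9.93%), and Rad51c alone was lower (background 9.37%). A change of at least 2-fold was reached by 3 members (6.52%), against 10% of all genes. The median was 0.04, beside 0.01 over all genes. Scaling by library totals moved the median of all genes to 0.20 and the share of higher genes among those called from 51.4% to 75.4%, while the members remained at 8 higher and 1 lower in number. The higher count fell to 3 without control replicate 2, to 4 without control replicate 1, control replicate 3 or YSJZD replicate 3, and to 5 without YSJZD replicate 1, while the lower count was 2 without control replicate 3 or cisplatin replicate 3. All genes called fell from 2694 to 1607, 1699 and 1985 without control replicates 1, 2 and 3. They fell to 1876 and 1898 without YSJZD replicates 1 and 3. The 3 comparisons share libraries, so their values are set side by side here and not counted as separate evidence.

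**Figure D1:**
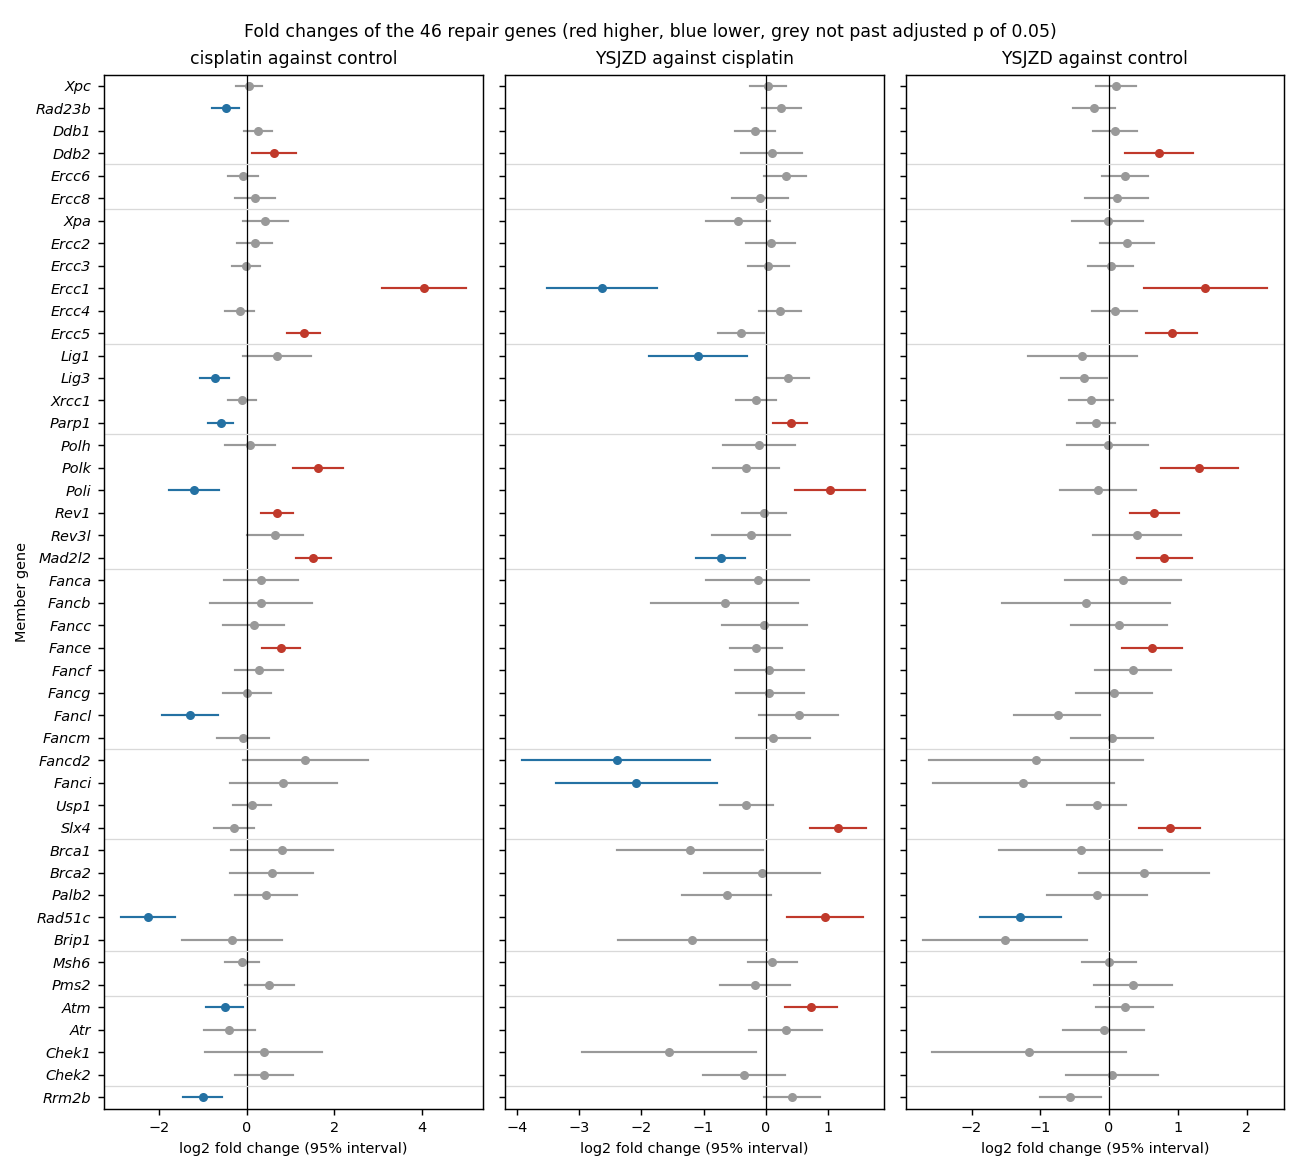
Log2 fold change with its 95% interval (x axis) for each of the 46 members (y axis, in order of role) in the 3 comparisons, with called members in red (higher) or blue (lower) and the others in grey. Ercc1 stands farthest to the right in cisplatin against control at 4.04 and Rad51c farthest to the left at -2.25, and 31 members are grey in that panel.

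Levels per transcript length (FPKM, fragments per kilobase of transcript, scaled to library depth) had a median over the 46 members of 3.17 in control, 3.31 in cisplatin and 3.91 in YSJZD. Ddb1 had the highest level in control at 79.2 ± 7.19 FPKM (SD, n = 3) and in YSJZD at 95.4 ± 14.3. In cisplatin the highest was Ercc1 at 145 ± 87.5 FPKM, a gene at 8.08 ± 1.03 in control. The lowest levels were those of Brca2 in control (0.233 ± 0.117), Fancb in cisplatin (0.383 ± 0.25) and Fancd2 in YSJZD (0.127 ± 0.0451). Members under 1 FPKM numbered 9, 10 and 9 in control, cisplatin and YSJZD.

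**Figure D2:**
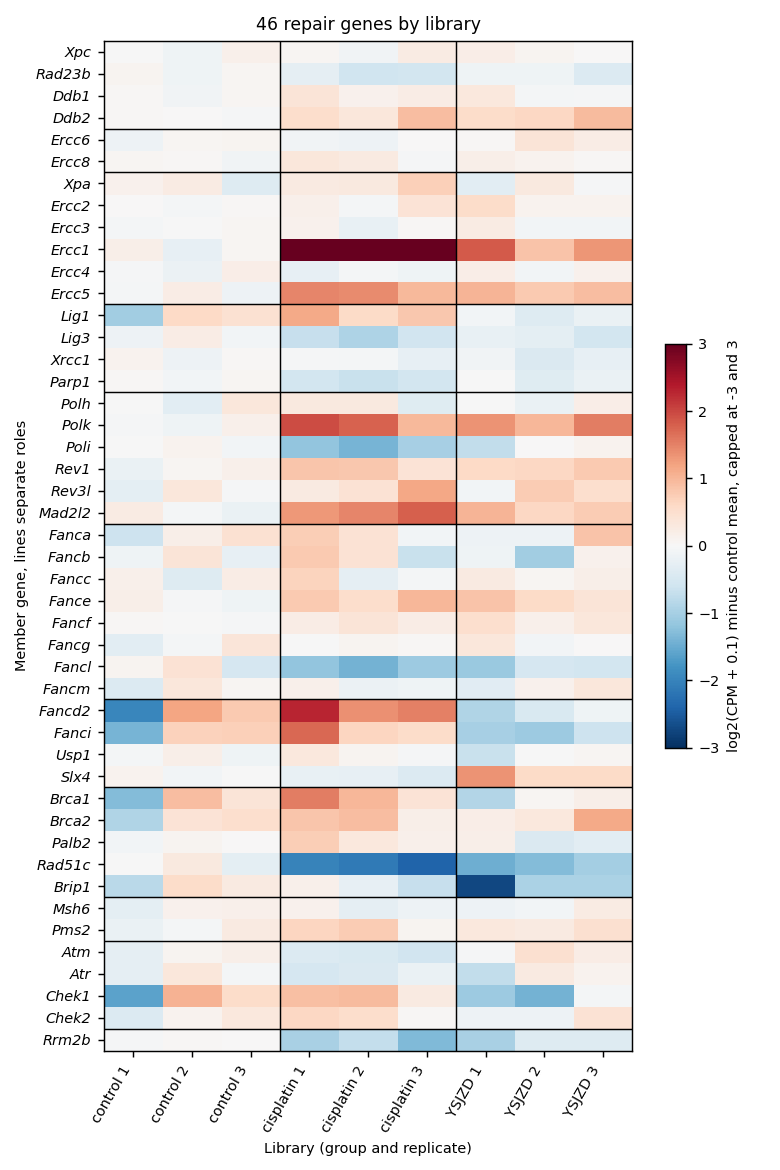
Each cell is a member (rows, in order of role) in a library (columns), coloured by log2(CPM + 0.1) minus the mean of the control libraries, capped at 3 in either direction. The Ercc1 row is at the cap in all 3 cisplatin libraries, the Rad51c row is blue in all 6 libraries given the drug, and control replicate 1 is bluest in Fancd2, Fanci, Brca1, Brca2, Brip1, Chek1 and Lig1.

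Excision repair begins with damage recognition, by Xpc with Rad23b across the genome and by the Ddb1 and Ddb2 pair at lesions that Xpc finds poorly. Values per library are given in the order of replicates 1, 2 and 3, in CPM scaled to the library sizes of the fit. Xpc stood at 42.9, 39.5 and 48.3 in control, 44.9, 40.6 and 51.2 in cisplatin, and 50.0, 46 and 44.0 in YSJZD. The groups overlapped, and the log2 fold change of cisplatin against control was 0.06 (95% interval -0.23 to 0.36, adjusted p = 0.699). Its partner Rad23b was at 180, 157 and 178 in control, 141, 114 and 116 in cisplatin, and 156, 156 and 129 in YSJZD. Every cisplatin library lay under every control library, and Rad23b fell by 0.47 ± 0.14 (SE) on the log2 scale (adjusted p = 0.0147), a call lost without cisplatin replicate 2 (adjusted p = 0.0584).

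Ddb2, the damage-binding subunit, was at 5.38, 5.32 and 5.17 CPM in control, 7.65, 6.68 and 10.2 in cisplatin, and 7.76, 8.2 and 10.3 in YSJZD. Both groups given cisplatin lay above control without overlap, by 0.63 ± 0.22 (adjusted p = 0.0359) and 0.72 ± 0.22 (adjusted p = 0.0464) on the log2 scale. Both calls were close to the threshold. The first was lost without any 1 control library, without cisplatin replicate 1 or 3, or without YSJZD replicate 2 (adjusted p from 0.0504 to 0.127), and the second without any control or YSJZD library or cisplatin replicate 1 (adjusted p from 0.0553 to 0.161). Ddb1, the adaptor that ties Ddb2 to a ubiquitin ligase, was at 359, 326 and 367, 460, 386 and 409, and 437, 336 and 341 CPM in the order of control, cisplatin and YSJZD. Its change with cisplatin was 0.25 (95% interval -0.07 to 0.58, adjusted p = 0.163). Ddb2 overlaps Acp2, an acid phosphatase gene, in RefSeq, and Acp2 was lower in cisplatin (-0.53 ± 0.12), so the 2 neighbours differed in opposite directions.

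Ercc6 and Ercc8 encode CSB and CSA, which start repair where RNA polymerase has stalled on a lesion. Ercc6 was at 14.8, 17.2 and 17.5 CPM in control, 15.2, 14.7 and 16.5 in cisplatin, and 16.9, 21.7 and 19.3 in YSJZD. Ercc8 was at 5.6, 5.54 and 5.03, 6.84, 6.51 and 5.21, and 6.13, 5.77 and 5.52 in the same order. Neither was called in any comparison, and with cisplatin the 95% intervals of the log2 fold change ran from -0.43 to 0.25 and from -0.26 to 0.66.

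After recognition TFIIH, with its helicases Ercc2 and Ercc3, opens the helix, Xpa checks the lesion, and Ercc5 and the Ercc1 and Ercc4 pair cut on either side of it. Ercc1 was at 9.46, 7.07 and 8.74 CPM in control, 228, 118 and 70.2 in cisplatin, and 30.4, 15.2 and 21.2 in YSJZD. The 3 groups did not overlap, and the 3 cisplatin libraries were far apart from each other. Ercc1 rose 16.5-fold with cisplatin (log2 fold change 4.04 ± 0.43, adjusted p = 3.75e-05), with 3.49 to 4.35 when 1 library was left out. It was 6.22-fold lower with YSJZD than with cisplatin alone (-2.64 ± 0.40, adjusted p = 0.000984). Against control the YSJZD libraries were 2.64-fold higher (1.4 ± 0.40, adjusted p = 0.0358), a call lost without any 1 control library or YSJZD replicate 1 or 3 (adjusted p from 0.0691 to 0.126).

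Ercc4, which encodes XPF, the catalytic subunit of that nuclease, was at 21.5, 19.4 and 25.3 CPM in control, 18.6, 20.9 and 20.0 in cisplatin, and 25.0, 20.7 and 24.1 in YSJZD. These groups overlapped, with a log2 fold change of -0.16 for cisplatin against control (95% interval -0.49 to 0.17, adjusted p = 0.397). The ratio of Ercc1 to Ercc4 in FPKM was 1.96 to 2.51 in control, 18.3 to 60.4 in cisplatin and 4.33 to 6.28 in YSJZD. Of the 3 Ercc1 transcripts in the table, 1 held 92.8%, 86.5% and 90.4% of the FPKM in control, cisplatin and YSJZD. Ercc1 overlaps Cd3eap, a gene of an RNA polymerase I subunit, in RefSeq, and no source used here gives the strand of the reads. Cd3eap was at 11.1 to 11.5 CPM in control, 16.3 to 17.9 in cisplatin and 12.3 to 14.7 in YSJZD, a log2 fold change of 0.60 ± 0.15 with cisplatin.

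Ercc5, which encodes the other incision nuclease XPG, was at 14, 16.9 and 13.0 CPM in control, 40.1, 39.2 and 28.8 in cisplatin, and 29.5, 25.3 and 27.5 in YSJZD. Both groups given cisplatin lay above control, and they overlapped with each other. Ercc5 rose 2.46-fold with cisplatin (1.3 ± 0.17, adjusted p = 0.000133) and was 1.87-fold higher than control with YSJZD (0.91 ± 0.17, adjusted p = 0.0052). Between the groups given the drug the log2 difference was -0.39 (95% interval -0.76 to -0.03, adjusted p = 0.0889), which passed without cisplatin replicate 3 (adjusted p = 0.0227). Xpa was at 12.9, 13.9 and 9.01 CPM in control, 14.2, 14.3 and 19.4 in cisplatin, and 9.46, 14.4 and 11.4 in YSJZD, and was not called in any comparison. Ercc2 and Ercc3 lay at 18.8 ± 0.668 and 30.6 ± 1.02 CPM (SD, n = 3) in control, with log2 fold changes of 0.19 and -0.01 in cisplatin against control. Both were uncalled throughout. Of the 2 recognition pairs and the incision steps, then, only Ercc1 and Ercc5 passed 2-fold with cisplatin.

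**Figure D3:**
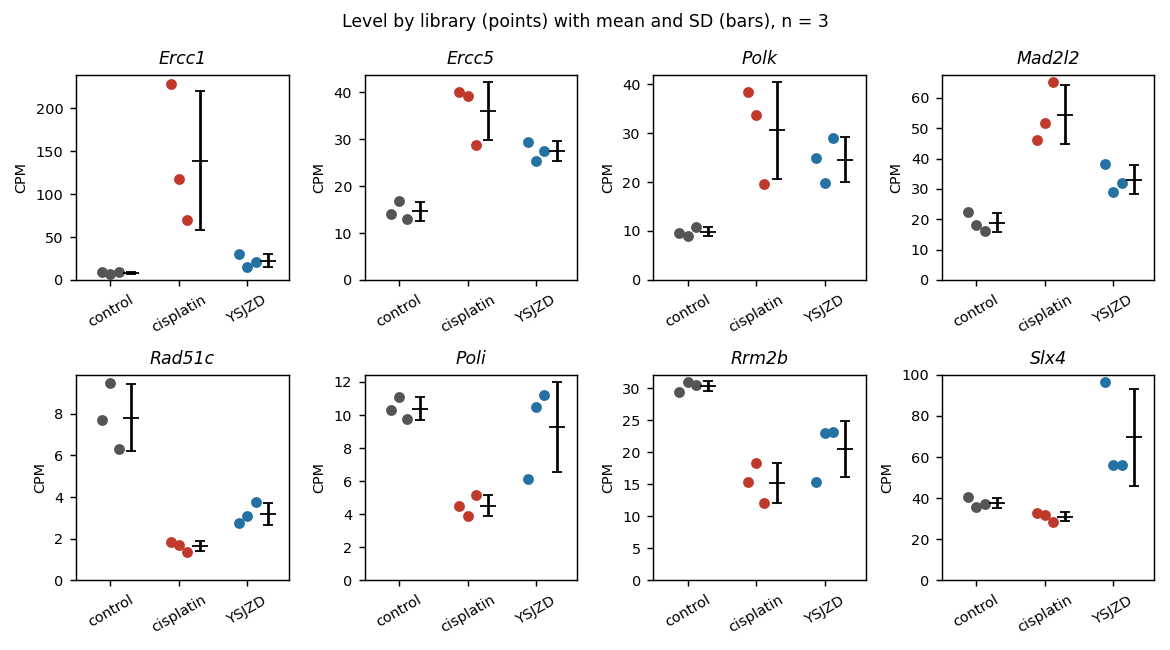
CPM (y axis, from 0) of 8 members in control, cisplatin and YSJZD libraries (x axis), with a point for each library and bars for the mean and SD of 3. Ercc1, Ercc5, Polk and Mad2l2 have no cisplatin point at or below a control point, Rad51c, Poli and Rrm2b have none at or above one, and all 3 YSJZD points of Slx4 lie above all others.

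Ligases seal the repaired strand, Lig1 mainly in dividing cells and Lig3 with Xrcc1, the scaffold of single-strand break repair, in resting cells. Parp1 senses single-strand breaks. Lig3 was at 44.4, 57.4 and 46.4 CPM in control, 30.4, 26.0 and 33.1 in cisplatin, and 41.9, 39.8 and 33.4 in YSJZD. The cisplatin libraries lay under both other groups, and Lig3 fell by 0.73 ± 0.15 on the log2 scale with cisplatin (adjusted p = 0.00244), while the difference of YSJZD from cisplatin was 0.36 (95% interval 0.02 to 0.70, adjusted p = 0.0882). Parp1 was at 49.8, 46.1 and 50.7 CPM in control, 33.1, 30.8 and 33.3 in cisplatin, and 48.3, 37.7 and 42.3 in YSJZD. It fell with cisplatin by 0.59 ± 0.12 (adjusted p = 0.0024). With YSJZD it was 0.40 ± 0.12 higher than with cisplatin alone (adjusted p = 0.0297), a call lost without cisplatin replicate 1 or 2 or YSJZD replicate 1 or 3 (adjusted p from 0.0606 to 0.0937). Xrcc1 was at 27.1, 22.4 and 25.8, 24.6, 24.0 and 21.1, and 23.3, 18.6 and 21.1 CPM in control, cisplatin and YSJZD, and was not called.

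Lig1 was at 4.73, 14.9 and 13.6 CPM in control, 21.7, 14.8 and 17.5 in cisplatin, and 9.28, 7.48 and 8.6 in YSJZD. The level of control replicate 1 was far under that of the other 2 control libraries, and the YSJZD libraries lay under all cisplatin libraries. The log2 fold change was 0.70 (95% interval -0.08 to 1.48, adjusted p = 0.116) for cisplatin against control. Lig1 was 2.13-fold lower with YSJZD than with cisplatin (-1.09 ± 0.35, adjusted p = 0.0361), and that call was lost without cisplatin replicate 1 or 3 or any 1 YSJZD library (adjusted p from 0.0562 to 0.108).

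Translesion polymerases insert bases opposite lesions that stop the replicative enzymes. Polk, polymerase kappa, was at 9.68, 9.03 and 10.9 CPM in control, 38.4, 33.7 and 19.5 in cisplatin, and 25.0, 19.7 and 28.9 in YSJZD. Both groups given cisplatin lay above control, by 3.10-fold (1.63 ± 0.25, adjusted p = 0.000384) and 2.49-fold (1.31 ± 0.25, adjusted p = 0.00578). Between them the log2 difference was -0.32 (95% interval -0.85 to 0.22, adjusted p = 0.338), which passed without cisplatin replicate 3 (-0.56, adjusted p = 0.04). Poli, polymerase iota, went the other way, at 10.3, 11.1 and 9.74 CPM in control, 4.5, 3.88 and 5.15 in cisplatin, and 6.13, 10.5 and 11.2 in YSJZD. Cisplatin libraries lay under both other groups. Poli fell with cisplatin by 1.2 ± 0.25 (adjusted p = 0.00257) and was 2.05-fold higher with YSJZD than with cisplatin (1.04 ± 0.25, adjusted p = 0.0105). Polh, polymerase eta, the enzyme that copies across cisplatin adducts, was at 6.77, 5.46 and 8.61, 8.41, 8.33 and 5.28, and 6.77, 5.91 and 7.83 CPM in control, cisplatin and YSJZD. Its log2 fold change with cisplatin was 0.08 (95% interval -0.50 to 0.66, adjusted p = 0.813).

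Polymerase zeta extends from the inserted base and consists of the catalytic Rev3l with Mad2l2 (REV7), and Rev1 recruits it. Mad2l2 was at 22.4, 18.1 and 16.2 CPM in control, 46.2, 51.8 and 65.2 in cisplatin, and 38.2, 28.9 and 31.9 in YSJZD. The 3 groups did not overlap and YSJZD lay between the other 2. Mad2l2 rose 2.87-fold with cisplatin (1.52 ± 0.18, adjusted p = 7.65e-05), was 1.65-fold lower with YSJZD than with cisplatin (-0.72 ± 0.18, adjusted p = 0.0111) and 1.74-fold higher with YSJZD than in control (0.80 ± 0.18, adjusted p = 0.0124). The last call was lost without control replicate 2 or 3 (adjusted p = 0.0513 and 0.0506). Rev1 was at 16.6, 19.6 and 20.9 CPM in control, 33.7, 33.4 and 25.1 in cisplatin, and 28.7, 29.0 and 32.8 in YSJZD. It was higher than control with cisplatin (0.69 ± 0.16, adjusted p = 0.00395) and with YSJZD (0.66 ± 0.16, adjusted p = 0.0158, lost without control replicate 1 at 0.066 or YSJZD replicate 3 at 0.0603).

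Rev3l was at 15.5, 24.2 and 18.5 CPM in control, 22.9, 25.7 and 42.7 in cisplatin, and 17.9, 32.2 and 27.3 in YSJZD. Its groups overlapped, with a log2 fold change of 0.65 for cisplatin against control (95% interval 0.01 to 1.29, adjusted p = 0.0799). That difference passed without cisplatin replicate 1 (adjusted p = 0.0462) and with a replicate block (adjusted p = 0.0402). Rev1 overlaps the translation factor gene Eif5b in RefSeq, whose change with cisplatin was 0.56 (95% interval 0.03 to 1.08), and Mad2l2 overlaps Draxin, which was at 1.2 CPM or less in every library.

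The Fanconi core complex recognises a crosslink, with Fancm as its anchor and Fancl as the ubiquitin ligase that marks Fancd2 and Fanci. Fancl was at 10.4, 13.3 and 6.89 CPM in control, 4.29, 3.6 and 4.59 in cisplatin, and 4.5, 6.96 and 6.64 in YSJZD. It fell 2.45-fold with cisplatin (-1.29 ± 0.29, adjusted p = 0.00344), with no overlap between these groups. The difference of YSJZD from cisplatin was 0.54 (95% interval -0.10 to 1.17, adjusted p = 0.172), and that of YSJZD from control was -0.75 (adjusted p = 0.0903), which passed without control replicate 3 (adjusted p = 0.0439). Fance, the subunit that binds Fancd2, was at 10, 8.6 and 8.08 CPM in control, 15.4, 12.9 and 17.7 in cisplatin, and 16.2, 13.3 and 11.7 in YSJZD. It rose with cisplatin by 0.78 ± 0.19 (adjusted p = 0.00647). Against control, YSJZD was 0.62 ± 0.19 higher (adjusted p = 0.0488), a call lost without cisplatin replicate 1, or without any 1 control or YSJZD library (adjusted p from 0.0564 to 0.148).

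Fancf, an adaptor of the core, was at 2.77, 2.7 and 2.65, 3.2, 3.54 and 3.17, and 3.85, 3.02 and 3.44 CPM in control, cisplatin and YSJZD. Fancb, a scaffold of the core, was at 0.582, 0.874 and 0.53, 1.19, 0.913 and 0.372, and 0.584, 0.263 and 0.712 CPM, and at these low counts the 95% interval of its log2 fold change with cisplatin ran from -0.84 to 1.5. The remaining core members Fanca, Fancc, Fancg and Fancm had control means from 3.79 to 6.22 CPM and log2 fold changes with cisplatin from -0.08 to 0.33. None of these 6 members was called in any comparison, so that 2 of the 8 genes of the core and its anchor (25.0%) were called with cisplatin, 1 higher and 1 lower, against 54.6% of all genes tested.

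Fancd2 and Fanci form the clamp that the core complex marks with ubiquitin, and Usp1 removes the mark. Fancd2 was at 0.145, 2.04 and 1.52 CPM in control, 4.5, 2.34 and 2.61 in cisplatin, and 0.409, 0.591 and 0.771 in YSJZD. Control replicate 1, with 2 counts, lay under every YSJZD library, and the cisplatin libraries lay above all others. Fancd2 was 5.29-fold lower with YSJZD than with cisplatin (-2.40 ± 0.68, adjusted p = 0.0206). The same call for Fanci, at 0.509, 2.48 and 2.52, 5.21, 2.4 and 2.23, and 0.701, 0.656 and 0.949 CPM in control, cisplatin and YSJZD, was a 4.24-fold lower level (-2.08 ± 0.58, adjusted p = 0.0195). Both calls were lost without cisplatin replicate 1 or YSJZD replicate 1 or 2 (adjusted p from 0.0569 to 0.0762). Against control neither passed in either group in edgeR, with log2 fold changes of 1.34 (95% interval -0.09 to 2.77, adjusted p = 0.101) for Fancd2 and 0.84 (-0.38 to 2.06, adjusted p = 0.222) for Fanci in cisplatin. With limma-voom Fancd2 passed there (1.86, adjusted p = 0.0466).

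Fancd2os, a gene named for the opposite strand that overlaps Fancd2 in RefSeq, was at 3.84 to 5.97 CPM in control and 0.0571 or less in cisplatin libraries, the opposite order to Fancd2. Usp1 was at 33.5, 39.4 and 32.1, 43.5, 37.0 and 34.1, and 21.9, 34.4 and 36.2 CPM in control, cisplatin and YSJZD, and was not called. Slx4, the scaffold that holds the nucleases that unhook a crosslink, stood at 40.5, 35.8 and 37.2 CPM in control, 32.6, 31.9 and 28.5 in cisplatin, and 96.6, 55.9 and 56.1 in YSJZD. YSJZD libraries lay above all others, replicate 1 by far, and the log2 fold change of cisplatin against control was -0.29 (95% interval -0.74 to 0.17, adjusted p = 0.258), which passed without YSJZD replicate 1 (adjusted p = 0.0459). Slx4 was 2.24-fold higher with YSJZD than with cisplatin (1.17 ± 0.20, adjusted p = 0.00215; 0.86 without YSJZD replicate 1) and 1.84-fold higher than in control (0.88 ± 0.20, adjusted p = 0.0141; lost without control replicate 2 at 0.0565).

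In recombination Brca1, Palb2 and Brca2 prepare resected ends for strand exchange, Rad51c belongs to complexes that act in the same step, and Brip1 is a helicase that binds Brca1. Rad51c was at 7.71, 9.47 and 6.29 CPM in control, 1.84, 1.71 and 1.37 in cisplatin, and 2.74, 3.08 and 3.74 in YSJZD. The groups did not overlap, with YSJZD between the other 2. Rad51c fell 4.74-fold with cisplatin (-2.25 ± 0.28, adjusted p = 9.24e-05) and was 2.45-fold lower than control with YSJZD (-1.29 ± 0.27, adjusted p = 0.00813). Its level with YSJZD was 1.94-fold that with cisplatin (0.95 ± 0.28, adjusted p = 0.0225), a call lost without cisplatin replicate 3 or YSJZD replicate 2 or 3 (adjusted p from 0.0515 to 0.0838). Of its 4 transcripts the leading 1 in control held 56.5% of the FPKM there, 40.3% in cisplatin and 42.5% in YSJZD.

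Brca1 was at 1.24, 6.12 and 4.17 CPM in control, 9.44, 6.45 and 4.28 in cisplatin, and 1.69, 3.35 and 3.62 in YSJZD. Its difference between YSJZD and cisplatin was -1.22 (95% interval -2.39 to -0.05, adjusted p = 0.0964), which passed without control replicate 1 (adjusted p = 0.0418). Brip1 was at 1.82, 4.81 and 3.97, 3.63, 2.74 and 1.99, and 0.409, 1.64 and 1.66 CPM in control, cisplatin and YSJZD, lowest in the YSJZD libraries. Its log2 fold change was -1.51 for YSJZD against control (95% interval -2.71 to -0.32, adjusted p = 0.0764), which passed with DESeq2 (-1.54, adjusted p = 0.0303). Palb2 was at 1.6, 1.82 and 1.72, 2.93, 2.17 and 1.92, and 1.93, 1.25 and 1.36 CPM, and Brca2 lay at 2.75 ± 1.25, 4.09 ± 1.08 and 3.92 ± 1.54 CPM (SD, n = 3). Rad51c was thus the only gene of these 5 called in the main edgeR fit.

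Msh6 and Pms2 belong to mismatch repair, whose complexes also bind cisplatin adducts. Msh6 was at 21.2, 28.7 and 29.0, 28.3, 21.6 and 23.3, and 23.4, 24.6 and 30.7 CPM in control, cisplatin and YSJZD. Pms2 was at 3.64, 4.01 and 5.1, 6.67, 7.19 and 4.47, and 5.25, 5.12 and 5.87 CPM. Neither was called, with log2 fold changes of -0.11 and 0.52 for cisplatin against control, and Pms2 passed without cisplatin replicate 3 (adjusted p = 0.0353).

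Atm answers double-strand breaks and Atr stalled forks, and they activate Chek2 and Chek1. Atm was at 12, 15.4 and 16.5 CPM in control, 10.8, 10.6 and 9.68 in cisplatin, and 14.2, 20.2 and 17 in YSJZD. Cisplatin libraries lay under both other groups. The fall with cisplatin was small (-0.50 ± 0.19, adjusted p = 0.0444) and lost without control replicate 2 or 3, any 1 cisplatin library or YSJZD replicate 3 (adjusted p from 0.0645 to 0.135). Atm was 1.65-fold higher with YSJZD than with cisplatin (0.73 ± 0.19, adjusted p = 0.0136), lost without YSJZD replicate 2 (adjusted p = 0.0574).

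Atr was at 16.5, 25.5 and 19.1, 14.1, 14.9 and 17.5, and 11.9, 24.3 and 21.7 CPM in control, cisplatin and YSJZD, with overlap between all groups. Chek1 was at 0.509, 3.72 and 2.58, 3.36, 3.43 and 2.11, and 0.759, 0.591 and 1.66 CPM, and Chek2 at 3.13, 4.52 and 5.3, 6.56, 6.11 and 4.34, and 3.79, 3.81 and 5.75 CPM. None of these 3 was called. The difference of Chek1 between YSJZD and cisplatin was -1.55 (95% interval -2.95 to -0.15, adjusted p = 0.0793), which passed without control replicate 1 (adjusted p = 0.0282). It also passed with DESeq2 (adjusted p = 0.0467) and in the edgeR fit of the 6 libraries compared (adjusted p = 0.0405).

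Rrm2b encodes the p53-induced small subunit of ribonucleotide reductase, which supplies nucleotides for repair outside S phase. It was at 29.4, 31.0 and 30.5 CPM in control, 15.4, 18.3 and 12 in cisplatin, and 15.4, 23.0 and 23.1 in YSJZD. Both groups given cisplatin lay under control. Rrm2b fell 1.99-fold with cisplatin (-0.99 ± 0.20, adjusted p = 0.00196). YSJZD differed from cisplatin by 0.43 (95% interval -0.02 to 0.87, adjusted p = 0.123), which passed without YSJZD replicate 1 (adjusted p = 0.0295), and from control by -0.57 (95% interval -1.01 to -0.12, adjusted p = 0.0733). The difference from control passed without cisplatin replicate 3 (adjusted p = 0.0487) and with DESeq2 (adjusted p = 0.0394).

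Xpc, Ddb2, Polh, Polk and Rrm2b have been described as targets of p53, the factor that DNA damage activates. Such descriptions are not all from mouse, and whether p53 acts on each of the 5 here was not tested. As a group these genes were picked with earlier results of these data known. With cisplatin, Polk and Ddb2 were higher, Rrm2b was lower, and Xpc and Polh were not called. The 19 p53 targets outside DNA repair had a median log2 fold change of 2.64 with cisplatin. Of them 18 were called higher (94.7%, background 28.6%), with Sesn1 as the exception. Cdkn1a, which encodes the cell cycle inhibitor p21, was at 7.06, 5.46 and 7.02 CPM in control, 885, 834 and 598 in cisplatin, and 553, 269 and 415 in YSJZD. Mdm2, the ligase that degrades p53, was higher by 2.40 ± 0.14 with cisplatin. Of the 5 repair genes, the log2 fold change of Polk (1.63) was over that of Bax, Sesn2 and Sesn1, and those of the other 4 were under every called gene of the 19. The difference between these groups of genes was not tested.

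In YSJZD against control 18 of the 19 targets outside repair were called higher (94.7%, background 9.93%). With YSJZD 7 were lower than with cisplatin alone (36.8%, background 18.0%), and 11 without cisplatin replicate 3 or YSJZD replicate 1. Btg2, an antiproliferative gene, was the farthest of the 7 at -1.81 ± 0.26. Of Xpc, Ddb2, Polh, Polk and Rrm2b none was called between YSJZD and cisplatin.

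**Figure D4:**
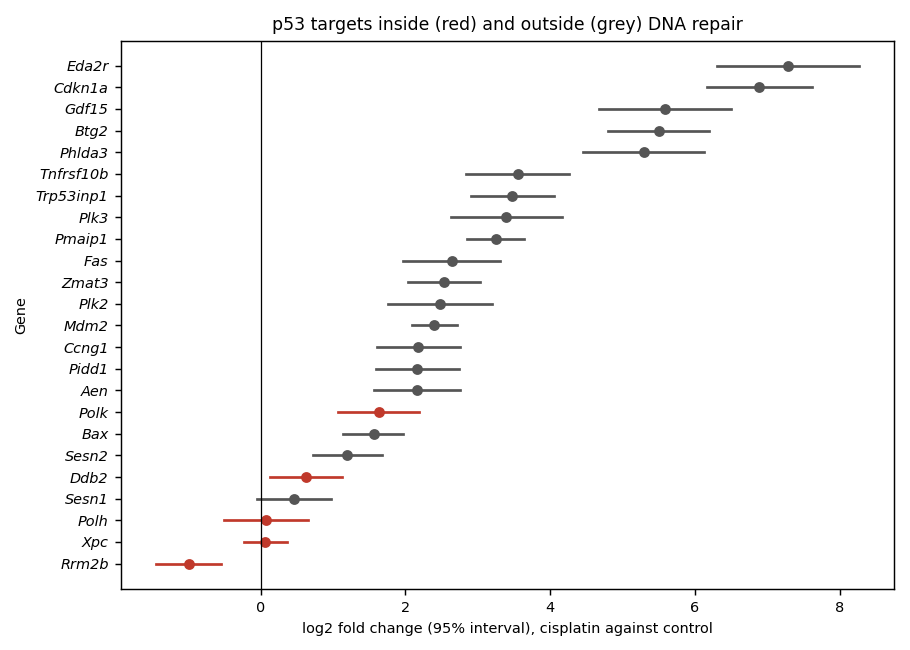
Log2 fold change of cisplatin against control with its 95% interval (x axis) for 19 p53 targets outside DNA repair (grey) and 5 repair genes described as p53 targets, not all in mouse (red), ordered by value (y axis). Cdkn1a stands at 6.89 and Mdm2 at 2.40, while Polk is at 1.63, Ddb2 at 0.63, Polh at 0.08, Xpc at 0.06 and Rrm2b at -0.99.

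Control replicate 1 stood apart in a group of members. In 7 of the 46 its level was under 50% of the mean of the other 2 control libraries, namely Fancd2 (8.17%), Chek1 (16.2%), Fanci (20.4%), Brca1 (24.0%), Lig1 (33.2%), Brca2 (37.8%) and Brip1 (41.4%), while the median over the members was 94.4%. The summed level of 20 mitosis genes was 24.7% there and that of 20 genes of DNA replication and S phase 39.8%. Mitosis genes summed to 33.3, 146 and 123 CPM in control, 335, 225 and 171 in cisplatin, and 27.2, 31.6 and 69.0 in YSJZD. DNA replication and S phase genes summed to 104, 306 and 216, 395, 285 and 255, and 140, 110 and 146 CPM. Of the mitosis genes 9 were higher in cisplatin than in control (45.0%, background 28.6%). All 20 were lower in YSJZD than in cisplatin (background 18.0%), a count that was 14 to 20 with 1 library left out. The 9 were 5 without control replicate 1, 4 without control replicate 3, 2 without cisplatin replicate 1 and 5 without cisplatin replicate 2. Top2a, the topoisomerase of mitotic chromosomes, was higher with cisplatin (1.45 ± 0.55) and lower with YSJZD than with cisplatin (-2.46 ± 0.58), and for the proliferation marker Mki67 these values were 0.64 (adjusted p = 0.411) and -2.19 ± 0.67. Of the S phase genes 10 were lower with YSJZD than with cisplatin (50.0%, background 18.0%), 16 without control replicate 1, 5 without cisplatin replicate 1 and 4 without YSJZD replicate 2. Brca2 differed from the other 6 members in that its YSJZD libraries (2.92, 3.15 and 5.69 CPM) overlapped its cisplatin libraries (4.56, 4.85 and 2.86 CPM), with a log2 difference of -0.06 (95% interval -0.99 to 0.87). The part of the cell cycle genes in the levels of these 7 members was not tested.

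Without control replicate 1, 6 members were higher and 8 lower in cisplatin against control, and 5 were higher and 7 lower in YSJZD against cisplatin, where Brca1 and Chek1 joined the lower genes.

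**Figure D5:**
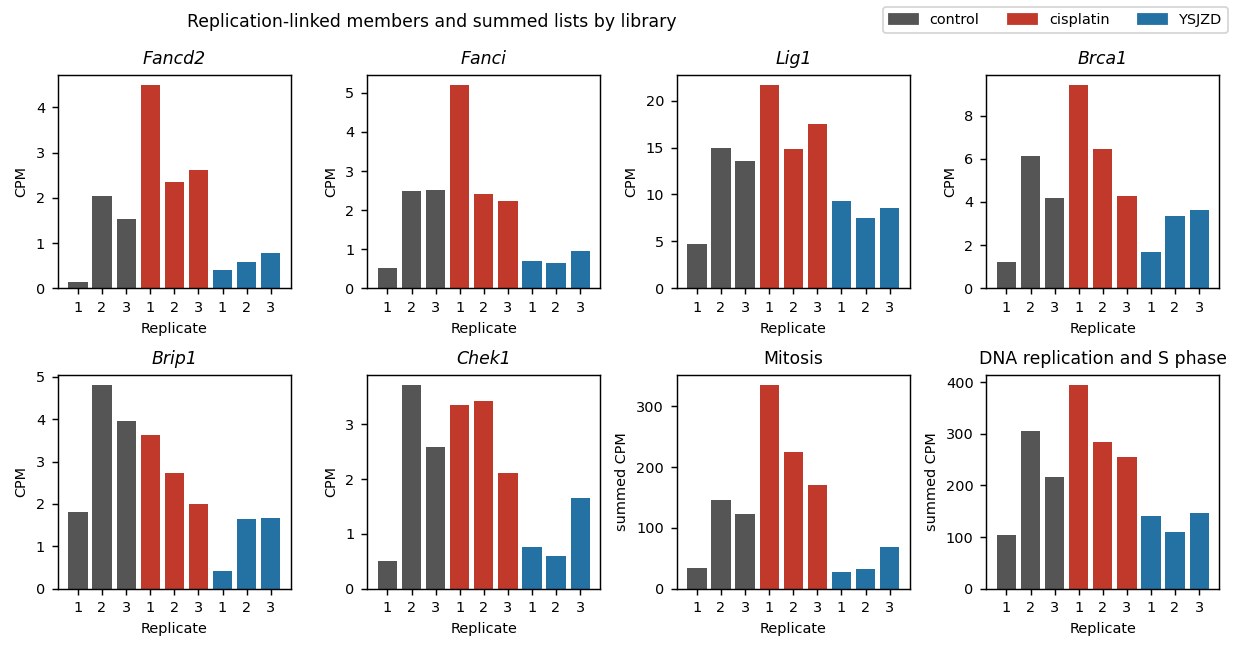
Level (y axis, CPM from 0) in each library (x axis, replicate number by group colour) of 6 of the 7 members named above, without Brca2, and of the summed mitosis and S phase genes. Control replicate 1 is the lowest control bar in every panel, and the YSJZD bars are all below the cisplatin bars, which is not so for Brca2.

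Outside the 46 genes, 132 other genes of DNA repair, all tested, were grouped in 9 lists of the same and neighbouring pathways. With cisplatin 25 were higher and 21 lower (34.8% called, against 54.6% of all genes), with a median of 0.13. With YSJZD against cisplatin 15 were higher and 24 lower (29.5%), and with YSJZD against control 6 were higher and 4 lower (7.58%). Without control replicate 1 the 25 were 15. The 24 were 12 without cisplatin replicate 1, 15 without YSJZD replicate 1 and 11 without YSJZD replicate 2, and the 6 and 4 were 2 to 6 each with 1 library left out. These shares lay under those of all genes (54.6%, 35.4% and 19.3% in the same order), and that difference was not tested.

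Among 20 other genes of excision repair 8 were lower with cisplatin (background 26.0%) and 1 higher (background 28.6%), with a median of -0.18. They included subunits of TFIIH, the complex of Ercc2 and Ercc3, where the core subunit Gtf2h2 fell by 1.74 ± 0.19 (adjusted p = 4.94e-05) and the cyclin Ccnh of its kinase fell by 1.01 ± 0.16 (adjusted p = 0.000429). With YSJZD 4 of the 20 were higher than with cisplatin (background 17.4%), among them Ccnh (0.89 ± 0.16).

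Of 17 other Fanconi and crosslink genes 3 were higher and 2 lower with cisplatin (backgrounds 28.6% and 26.0%). Eme2, a partner of the nuclease Mus81 that Slx4 holds, fell by 2.14 ± 0.27 and was 1.55 ± 0.27 higher with YSJZD than with cisplatin. Eme1, the other partner, was 1.97 ± 0.59 higher with cisplatin than in control and lower with YSJZD than with cisplatin (-2.88 ± 0.62). Dclre1b, a nuclease of telomere ends and crosslink repair, was 1.41 ± 0.25 higher with cisplatin.

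Among 10 other translesion genes 3 were higher and 1 lower with cisplatin (backgrounds 28.6% and 26.0%). Rad18, the ligase that marks PCNA so that translesion polymerases are recruited, was at 0.582, 1.53 and 2.05 CPM in control, 8.52, 6.28 and 9.5 in cisplatin, and 0.934, 1.25 and 2.31 in YSJZD. It rose with cisplatin by 2.53 ± 0.47 (adjusted p = 0.00115) and was lower with YSJZD than with cisplatin (-2.43 ± 0.46, adjusted p = 0.00324), where its levels overlapped those of control. Poldip2, which binds PCNA and polymerases, fell by 0.97 ± 0.12.

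Of 30 other recombination genes 6 were higher and 2 lower with cisplatin (backgrounds 28.6% and 26.0%). With YSJZD against cisplatin 1 was higher and 6 lower (backgrounds 17.4% and 18.0%). The helicase gene Blm was higher with cisplatin (1.39 ± 0.32) and lower with YSJZD than with cisplatin (-1.55 ± 0.32).

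Of 5 other mismatch repair genes 3 were lower with cisplatin (background 26.0%) and 3 were higher with YSJZD than with cisplatin (background 17.4%). Mlh3 and Msh3 were among both, at -0.78 ± 0.15 and -0.77 ± 0.22 with cisplatin and 0.87 ± 0.15 and 0.94 ± 0.22 with YSJZD against cisplatin. Of 18 base excision and single-strand break genes 4 were higher and 1 lower with cisplatin (27.8% called, against 54.6% of all genes). The endonuclease Apex1 was at 1.16 ± 0.21 and Parp2, the paralog of Parp1, at 0.90 ± 0.16, opposite to Parp1. Of 11 end joining genes 2 were higher and 3 lower (45.5% called, against the same 54.6%). The kinase Prkdc was at -1.27 ± 0.18 and polymerase mu, Polm, at 0.99 ± 0.18. Of 15 other checkpoint genes 4 were higher and 1 lower (33.3% called, against the same 54.6%). Rad9a rose by 1.17 ± 0.16 while Hus1, its partner in the clamp that activates Atr, fell by 1.34 ± 0.15.

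Of 6 nucleotide supply genes 2 were higher with cisplatin (background 28.6%) and 4 lower with YSJZD than with cisplatin (background 18.0%). Rrm2, the S phase counterpart of Rrm2b, was at 4.15, 18.9 and 15.6 CPM in control, 84.1, 48.1 and 25.4 in cisplatin, and 7.53, 5.18 and 11.3 in YSJZD. Rrm2 was 2.03 ± 0.55 higher with cisplatin (adjusted p = 0.0103) and lower with YSJZD than with cisplatin (-2.71 ± 0.57, adjusted p = 0.0051), where Rrm2b had fallen with cisplatin. Rrm1, the large subunit that both pair with, had a log2 fold change of 0.59 with cisplatin (adjusted p = 0.0695) and was lower with YSJZD than with cisplatin (-0.93 ± 0.25). The ratio of Rrm2b to Rrm2 in FPKM was 3.29, 0.761 and 0.912 in control, 0.0855, 0.178 and 0.219 in cisplatin, and 0.95, 2.05 and 0.951 in YSJZD. The highest control ratio was that of replicate 1, the library low in cell cycle genes.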

How the data were processed

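The authors deposited 1 table in which each of 58075 rows is a RefSeq transcript with its Entrez gene, and whose read count columns hold expected counts per transcript (RSEM 1.3.1, per the submitters' processing notes, which also name DESeq2 1.4.5 and GRCh38, a human build). A deposited second set of columns was taken to be FPKM, because the transcript length implied by its values lay a median of 148.5 to 160.4 bases under the annotated length. For the aligner, the mouse build and the strand of the reads: not given in the sources used here.

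Expected counts were summed per Entrez gene and rounded to whole numbers (17963 genes, of which 17847 have a symbol in the RefSeq table of GRCm38.p6). Before rounding, 16.5% to 19.3% of gene counts lay more than 0.005 from a whole number. RSEM divides reads between similar transcripts. The spans of 16 members overlap another protein-coding gene measured here, and reads from shared bases cannot be assigned without strand. Exons were not compared, and non-coding neighbours were not counted.

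The 9 libraries were fitted together in edgeR 4.0.16 (R 4.3.3) with group as the only term, TMM factors of 0.855 to 1.105, a filter by filterByExpr, glmQLFit and two-sided glmQLFTest. The filter removed 4009 genes, and the biological coefficient of variation over all genes was 0.234. Values after the plus-minus sign of a log2 fold change are standard errors, and those of a level are SDs over 3 libraries. CPM values are scaled to TMM-adjusted totals of the tested genes. The fit was tested on simulated counts, with changes placed only in genes of higher control level. That check does not cover members at low levels.

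Members, gene lists, marker lists and the rule for the genes named were chosen with earlier results of these data known, so the lists give no independent support. Each member is named. Values in every library are given for up to 4 members of a role by smallest adjusted p and for 13 fixed members, and up to 3 called genes of another list were eligible. Alternatives were DESeq2 size factors, library totals, no filter, a filter of 5 CPM in 3 libraries, DESeq2 1.42.0, limma-voom (limma 3.58.1), a replicate block, the 6 libraries compared and each library left out. Leaving libraries out of the counts for other lists was added after seeing the data. Promoters came from RefSeq (GRCm38.p6), where 38 of 46 members matched by Entrez gene number. Some genes of the other lists are not reported here.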

Additional observations from a re-analysis of the deposited data

How the results depend on the processing

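In cisplatin against control 12 of the 15 called members passed in all 17 alternatives, and Rad23b, Ddb2 and Atm did not. In YSJZD against cisplatin 4 of 10 passed in all of them (Ercc1, Poli, Mad2l2 and Slx4), and in YSJZD against control 3 of 9 (Ercc5, Polk and Rad51c). No called member changed sign. Library totals gave 11 higher members in cisplatin against control. The filter of 5 CPM in 3 libraries, which left 38 members in the test and dropped Fancd2, Fanci and 6 others, gave 3 lower in YSJZD against cisplatin. In YSJZD against control DESeq2 gave 3 lower members and limma-voom 5 higher. With 1 library left out the counts were 3 to 5 higher and 2 to 7 lower in YSJZD against cisplatin, and 3 to 8 higher and 1 to 2 lower in YSJZD against control. All genes called then numbered 3496 to 4871 in YSJZD against cisplatin, against 4942 with all libraries. In YSJZD against control they numbered 1607 to 3138, with 1607 without control replicate 1 and 1699 without control replicate 2, against 2694. Causes were not tested. Same-numbered libraries had correlations of deviations from their group means of -0.16 to 0.12, so the replicate numbers were not taken as pairs. With a replicate block the members called were 8 higher and 7 lower in cisplatin against control, 5 and 4 in YSJZD against cisplatin, and 6 and 1 in YSJZD against control. At these depths members under 1 CPM in a group, such as Fancd2 in YSJZD (7, 9 and 13 counts), rest on few reads, and this group carries its called difference from cisplatin.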
